A study of Homo sapiens with 12 samples.

Results

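The transcripts of 10 genes of the nuclear lamina and the inner nuclear membrane were followed in RPE1 cells whose cytokinesis had been made to fail. The genes are LMNA, LMNB1, LMNB2, LBR, TMPO, EMD, BANF1, SUN1, SUN2 and LEMD3, listed by name for what their products are, with no threshold on their measured values. They and the other lists of genes below were chosen with earlier results of these data known. All 10 were matched to a row among the 57773 gene rows of the deposited table. RPE1 is an immortalised human cell line derived from retinal pigment epithelium. Cells received siRNA against Anillin (ANLN, a scaffold of the contractile ring that divides the cell) or a non-targeting siRNA for 24 h, were stained alive with the DNA dye Hoechst, and were sorted by DNA content. The 4 groups of 3 libraries each are named for siRNA and gate: control 2N and control 4N received the non-targeting siRNA, Anillin 2N and Anillin 4N the siRNA against Anillin. Every group went through the same transfection, staining and sort. The 4N gate of a control culture takes cells in G2 and mitosis, while after a failed cytokinesis it can also take cells in G1 with a doubled genome, and DNA content does not separate them. The submitters speak of biological replicates and do not state separate cultures. The p-values therefore cover the spread between these libraries, which may be technical.

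The lamina is a meshwork of intermediate filament proteins under the inner nuclear membrane. LMNA encodes the A-type lamins, which stiffen the nucleus, and LMNB1 and LMNB2 encode the B-type lamins, which stay attached to the membrane through a farnesyl group. Membrane proteins with a LEM domain (the TMPO product LAP2, emerin from EMD, and MAN1 from LEMD3) bind the small chromatin protein BAF, encoded by BANF1, while LBR binds B-type lamins and heterochromatin, and SUN1 and SUN2 reach across the envelope to nesprins and the cytoskeleton. The envelope and lamina are taken apart in mitosis and rebuilt around the daughter chromosomes, and loss of lamin B1 is a widely used mark of senescent cells.

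Reads assigned to genes numbered between 17412742 and 61760450 per library. The level of ANLN was 1.88, 1.25 and 1.66 RPKM in control 2N and 8.42, 7.45 and 7.98 in control 4N. After Anillin siRNA it was 0.085, 0.0582 and 0.0395 at 2N and 0.0989, 0.0855 and 0.07 at 4N. All 6 libraries of the Anillin siRNA were below all 6 of the control siRNA. RPKM here means reads scaled to library size and per kilobase of the gene's whole genomic span, introns included. Of 11 markers of retinal pigment epithelium and of epithelia, KRT8, KRT18 and OTX2 had a mean of at least 0.5 RPKM, while RPE65, BEST1, RLBP1 and PMEL, which define the differentiated pigment epithelium, had means of 0.0393, 0.0962, 0.034 and 0.0403 and TTR was listed at 0. None of 6 markers of blood cells and none of 6 of muscle and other epithelia reached a mean of 0.5. Each value is a share of its library's reads, and in bulk RNA fewer cells of a kind and less RNA per cell cannot be told apart.

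The 150 bases before the most upstream RefSeq start of 3 genes are shown, moved upstream of any GENCODE 29 exon of the gene itself in that window. Exons of other genes were not avoided, and the LMNB1 stretch overlaps an exon of the long noncoding RNA gene LMNB1-DT. The 3 genes are examples of the patterns described below: LMNB1 with a large rise in control 4N, SUN2 with a smaller rise there, and LMNA with levels that overlapped between control 4N and control 2N. Sequences are from RefSeq on GRCh38.p14, read 5′ to 3′ on the strand of the gene, which is minus for SUN2 and plus for LMNA and LMNB1. RefSeq lists 3 starts for SUN2, and the stretch printed for it lies inside the longer GENCODE 29 span of the gene, downstream of that span's 5′ end. Capitals mark matches to letters that are known from promoters of cell cycle genes: the CHR element (TTTGAA or TTCGAA), the CCAAT box, and an E2F-like site (TTGGCGC or TTCCCGC), each on either strand, with no overlap between the motifs marked.
LMNB1, chr5:126776473-126776622: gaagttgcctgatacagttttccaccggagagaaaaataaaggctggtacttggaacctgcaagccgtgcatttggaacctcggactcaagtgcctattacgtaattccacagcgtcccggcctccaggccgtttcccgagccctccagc
SUN2, chr22:38756001-38756150: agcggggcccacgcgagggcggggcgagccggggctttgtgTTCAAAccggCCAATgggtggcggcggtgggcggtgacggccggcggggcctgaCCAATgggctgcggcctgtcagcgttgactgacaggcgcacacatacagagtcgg
LMNA, chr1:156082423-156082572: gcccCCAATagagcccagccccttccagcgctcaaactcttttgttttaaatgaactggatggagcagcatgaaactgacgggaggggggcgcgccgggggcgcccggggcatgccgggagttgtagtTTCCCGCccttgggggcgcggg

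A promoter window of 300 bases was found for 9 of the 10 genes. The CHR letters stood in 2 of the 9 windows (LMNB2 and SUN2), CCAAT in 5 (LMNA, TMPO, EMD, SUN2 and LEMD3) and the E2F-like letters in 3 (LMNA, BANF1 and LEMD3). Among 27305 RefSeq promoters of the same length, 16.7% held the CHR letters, 35.7% CCAAT and 9.3% the E2F-like letters. The LMNB1 and LBR windows held none of these letters, and the LMNA window held CCAAT and TTCCCGC. A match to letters is a description of the window and not a site shown to be bound.

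In control cells, most of these genes were higher at 4N than at 2N, and after Anillin siRNA the 4N cells did not have those higher levels. TMPO, LMNB1, LMNB2, LBR, SUN2, BANF1 and EMD rose in control 4N over control 2N, by between 1.22-fold (EMD) and 3.8-fold (LMNB1) in mean RPKM. The same 7 genes fell in Anillin 4N against control 4N, by between 1.29-fold (EMD) and 5.26-fold (LMNB1), and SUN1 rose by 1.17-fold. LMNA, the most abundant of the 10 in reads per kilobase of exon, passed the test in neither of these comparisons.

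Of the 10 genes, 9 reached 0.5 RPKM in at least 3 libraries and were tested by limma-trend on log2(RPKM + 0.5) with Benjamini-Hochberg adjustment over 12892 genes. LMNB1 reached that level in 7 of 12 libraries and LEMD3 in 0. In control 4N against control 2N, 7 of the 9 rose and 0 fell, where 23.9% of all genes tested rose and 13.2% fell. In Anillin 4N against control 4N, 7 fell and 1 rose, where 31.5% of all genes fell and 20.0% rose. In Anillin 2N against control 2N, 5 fell (TMPO, LMNB2, LMNB1, BANF1 and LBR) and SUN1 rose, where 17.1% of all genes fell and 11.4% rose. Against control 2N, the Anillin 4N cells had 3 genes lower (TMPO, LMNB2 and LMNB1) and 2 higher (LMNA and SUN1), where 15.8% of all genes were lower and 14.1% higher. Within the Anillin siRNA, 3 genes (LMNB1, SUN2 and LBR) rose from 2N to 4N and 0 fell, where 2.61% of all genes rose and 0.97% fell. At an unadjusted p under 0.05, none of the 9 fell in control 4N against control 2N or from Anillin 2N to Anillin 4N either, and 6 rose in the last. The share of all genes at that unadjusted threshold was not counted. The comparisons share groups of libraries and are not independent of each other.

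On reads recovered from the RPKM steps, all 10 genes could be tested by limma-voom among 22404 genes. There 7 rose in control 4N over control 2N (19.0% of all genes rose and 17.3% fell), and 7 fell and 1 rose in Anillin 4N against control 4N (23.6% fell and 20.8% rose). In Anillin 2N against control 2N, 6 fell and 1 rose (16.2% fell and 12.4% rose), and in Anillin 4N against control 2N 3 were lower and 3 higher (14.8% and 12.6%). In Anillin 4N against Anillin 2N, 5 rose and 0 fell (2.57% and 1.47% of all genes), with LMNA and TMPO added to the 3 above.

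The median log2 change over the 9 genes tested was 0.66 in control 4N against control 2N and -0.57 in Anillin 4N against control 4N, beside 0.05 and -0.05 over all genes tested. It was -0.14 in Anillin 2N against control 2N, -0.08 in Anillin 4N against control 2N and 0.24 in Anillin 4N against Anillin 2N, beside -0.02, -0.003 and 0.02. The split of all genes depends on the scaling between libraries: quantile scaling gave 3505 rises and 3182 falls in Anillin 4N against control 4N, in place of 2582 and 4056, and 2096 rises and 2465 falls in control 4N against control 2N, in place of 3079 and 1703.

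Genes of G2 and mitosis rose in control 4N over control 2N and fell in Anillin 4N against control 4N, as most of the lamina genes did. In Anillin 4N against control 2N their median log2 change was 0.04, where TMPO, LMNB2 and LMNB1 were lower. That of the G1/S genes was -0.85. The summed level of 15 such genes (CDK1, CCNB1, TOP2A and others, all 15 above 0) was 39.6 to 59.9 RPKM over the control 2N libraries, 313 to 360 in control 4N, 15.3 to 16.7 in Anillin 2N and 48.0 to 52.2 in Anillin 4N. That of 15 genes of G1/S and DNA replication, also all above 0, was 44.2 to 67.0, 95.1 to 118, 26.5 to 28.1 and 32.8 to 36.4 RPKM in the same order. The sum of 15 p53 target genes, led by CDKN1A, was 73.6 to 79.4, 82.8 to 92.5, 107 to 113 and 183 to 192 RPKM. The part that cell cycle composition had in the lamina values was not tested.

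**Figure D1:**
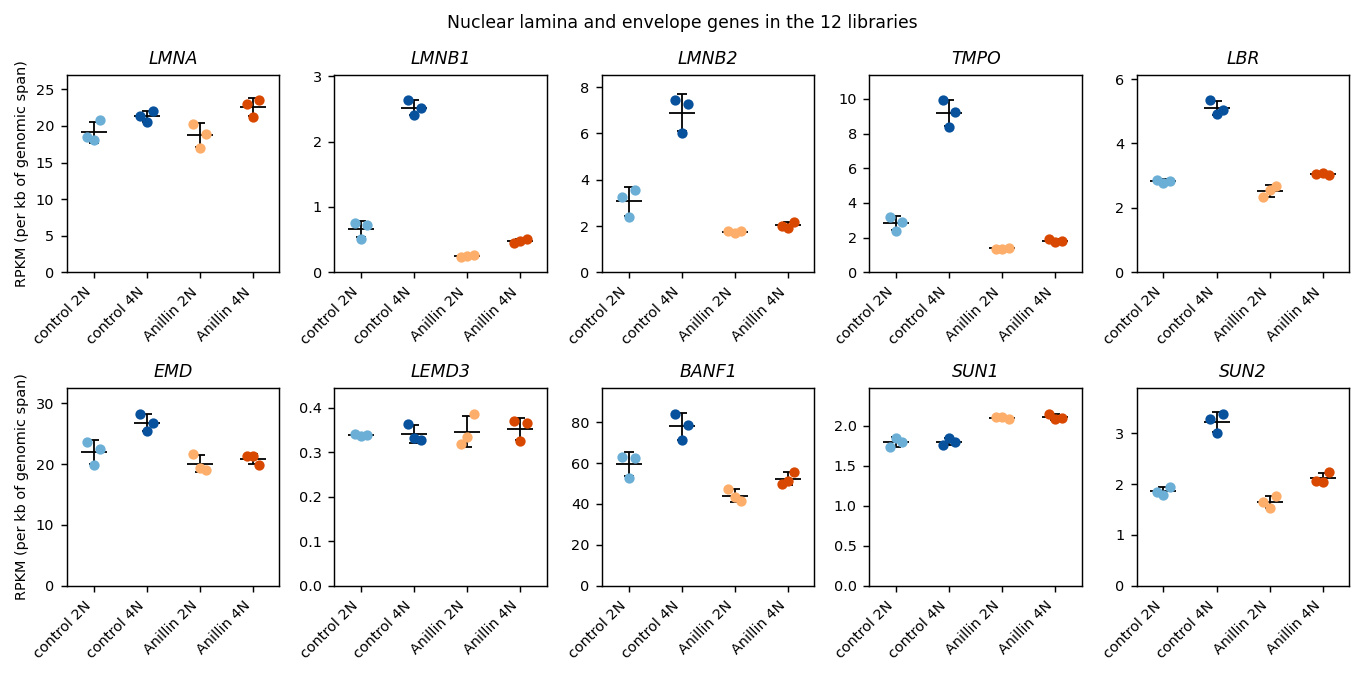
Level of each of the 10 genes in RPKM per kilobase of genomic span (vertical axes from 0, each gene on its own scale) in the 4 groups, with 1 point per library and the mean ± SD over 3 libraries as bars. Control 4N stands above the other groups for LMNB1, LMNB2, TMPO, LBR, EMD, BANF1 and SUN2, SUN1 separates by siRNA (1.73 to 1.85 RPKM in the control libraries and 2.08 to 2.15 after Anillin siRNA), and LEMD3 stays between 0.319 and 0.387 RPKM.

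LMNA (ENSG00000160789) lies on the plus strand of chromosome 1 from 156082573 to 156140089 (coordinates here and below are those of GENCODE 29 on GRCh38) and encodes lamins A and C. Its level was 18.5, 18.1 and 20.8 RPKM in control 2N and 21.3, 20.6 and 22.1 in control 4N. After Anillin siRNA the values were 20.3, 17.0 and 18.9 at 2N and 23.0, 21.2 and 23.5 at 4N. The Anillin 4N libraries were all above both 2N groups, and the other neighbouring groups overlapped. Ordered by mean, Anillin 4N (22.6 ± 1.18, SD, n = 3) came before control 4N (21.4 ± 0.74), control 2N (19.1 ± 1.42) and Anillin 2N (18.7 ± 1.64).

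No pair of neighbours in that order passed the test for LMNA. The log2 change was 0.08 ± 0.07 (SE) for Anillin 4N against control 4N (adjusted p = 0.41), 0.16 ± 0.07 for control 4N against control 2N (adjusted p = 0.123) and -0.03 ± 0.07 for Anillin 2N against control 2N (adjusted p = 0.782). Scaling decided the first of these: with quantile scaling Anillin 4N exceeded control 4N by 0.25 (adjusted p = 0.00825), and on log2 RPM by 0.18 (adjusted p = 0.0274). Against control 2N, Anillin 4N was higher by 0.23 ± 0.07 (adjusted p = 0.0374). This call was lost without the first (adjusted p = 0.107) or the second (0.103) library of control 2N, or the first of control 4N (0.0514). Leaving out the first (0.0969) or the third (0.11) library of Anillin 4N lost it too. So did testing without the RPKM filter (0.0748) and fitting the compared groups alone (0.0712).

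LMNB1 (ENSG00000113368, plus strand of chromosome 5 from 126776623 to 126837020) encodes lamin B1. Its level was 0.752, 0.514 and 0.72 RPKM in control 2N and 2.63, 2.4 and 2.52 in control 4N. The Anillin groups had 0.23, 0.242 and 0.268 at 2N and 0.447, 0.476 and 0.515 at 4N. These low RPKM values rest on 365 to 6646 reads per library, scaled to a span of 60398 bases. LMNA, with a span of 57517 bases, was at 17.0 to 23.5 RPKM. All control 4N libraries were above, and all Anillin 2N libraries below, every library of the other groups, while the highest Anillin 4N library just passed the lowest of control 2N.

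From control 2N to control 4N, LMNB1 rose 3.8-fold in mean RPKM, or by 1.38 ± 0.07 on the log2 scale (adjusted p = 5.48e-07). In Anillin 4N it was 5.26-fold lower than in control 4N (log2 change -1.62 ± 0.07, adjusted p = 1.28e-07). Anillin 2N was 2.68-fold below control 2N (-0.63 ± 0.07, adjusted p = 0.000286). The added 0.5 RPKM compresses the changes of this gene: on recovered reads the same log2 changes were 1.92 ± 0.09, -2.38 ± 0.10 and -1.45 ± 0.11.

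From Anillin 2N to Anillin 4N, LMNB1 rose 1.94-fold (0.39 ± 0.07, adjusted p = 0.0171, and 0.99 ± 0.12 on recovered reads, adjusted p = 2.95e-05). On RPKM this call did not survive leaving out the first (adjusted p = 0.0598) or the second (0.0665) library of Anillin 2N, nor the second (0.0601) or the third (0.0672) of Anillin 4N. Against control 2N, the log2 change of Anillin 4N was -0.24 ± 0.07 (adjusted p = 0.0317). It missed the threshold without the first (0.109) or the third (0.103) library of control 2N and without the first (0.0909) or the second (0.0773) of Anillin 4N. It also missed without the RPKM filter (0.0697) and with the compared groups fitted alone (0.117).

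LMNB2 (ENSG00000176619, minus strand of chromosome 19 from 2427638 to 2456996) encodes lamin B2, and shares part of its span with TIMM13 on the same strand. Its level was 3.24, 2.38 and 3.56 RPKM in control 2N and 7.43, 6.0 and 7.28 in control 4N. After Anillin siRNA it was 1.79, 1.7 and 1.77 at 2N and 2.02, 1.9 and 2.19 at 4N. None of the 4 groups overlapped another. It rose 2.26-fold from control 2N to control 4N (1.07 ± 0.12, adjusted p = 0.000119), and Anillin 4N was 3.39-fold below control 4N (-1.54 ± 0.12, adjusted p = 4.61e-06).

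Both Anillin groups also had less LMNB2 than control 2N, by 1.75-fold in Anillin 2N (-0.65 ± 0.12, adjusted p = 0.00335) and by 1.5-fold in Anillin 4N (-0.48 ± 0.12, adjusted p = 0.0143). The last call was lost when the first library of control 2N (0.0524) or the second of Anillin 4N (0.0518) was left out. Fitting the compared groups alone lost it too (0.0599). Anillin 4N and Anillin 2N, neighbours in the order of levels, gave a log2 change of 0.17 ± 0.12 (adjusted p = 0.527), unlike LMNB1 where that step passed the test. Whether the steps of the LMNB1 and LMNB2 genes differ was not tested.

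Within a library, the lamin transcripts can be compared per kilobase of exon. Reads per exonic kilobase of LMNB1 were 6.97% ± 1.23 (SD, n = 3) of those of LMNA in control 2N, 23.8% ± 0.956 in control 4N, 2.68% ± 0.338 in Anillin 2N and 4.29% ± 0.326 in Anillin 4N. The 4 groups did not overlap, and the ratio was highest in control 4N. For LMNB2 relative to LMNA, the values were 10.4% ± 1.6, 21.2% ± 1.92, 6.17% ± 0.388 and 5.92% ± 0.198 in the same order, and the Anillin groups overlapped each other.

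Per kilobase of exon, the B-type lamins also changed rank. LMNB1 had 66.7% ± 4.6 of the reads per exonic kilobase of LMNB2 in control 2N, 113% ± 8.95 in control 4N, 43.3% ± 3.61 in Anillin 2N and 72.5% ± 4.46 in Anillin 4N. On that scale LMNB1 was above LMNB2 in each control 4N library (109%, 123% and 107%) and below it in each of the other 9 libraries. In recovered reads and in RPKM, LMNB1 was below LMNB2 in every library. The change of rank therefore depends on the exonic lengths used, 3633 bases for LMNB1 and 5432 for LMNB2. Whether reads in introns were counted is not given in the sources used here. On the exonic scale, library-size-scaled reads per kilobase of LMNA were 158 and 176 in the control groups at 2N and 4N and 154 and 186 after Anillin siRNA, against 11.0 and 41.9, and 4.1 and 7.97, for LMNB1.

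**Figure D2:**
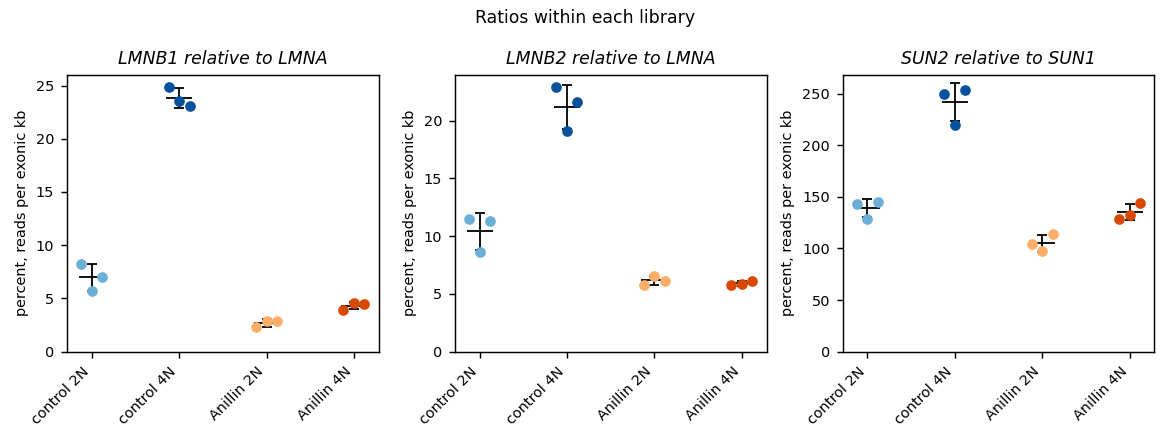
Ratio of LMNB1 to LMNA, LMNB2 to LMNA and SUN2 to SUN1 within each library, in percent of reads per exonic kilobase (vertical axes from 0), with 1 point per library and the mean ± SD over 3 libraries. The LMNB1 to LMNA ratio is 23.1% to 24.9% in control 4N and 2.29% to 4.53% in the Anillin libraries, and the SUN2 to SUN1 ratio is 220% to 254% in control 4N and 97.2% to 145% elsewhere.

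TMPO (ENSG00000120802, plus strand of chromosome 12 from 98515512 to 98550379) encodes the LAP2 proteins, which tie lamins and BAF to chromatin. Its antisense neighbour TMPO-AS1 overlaps it, and whether counting used strand is not given in the sources used here. TMPO was at 3.18, 2.4 and 2.93 RPKM in control 2N and 9.92, 8.41 and 9.26 in control 4N. The values in the Anillin groups were 1.35, 1.36 and 1.42 at 2N and 1.91, 1.73 and 1.81 at 4N. The groups did not overlap.

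By the RPKM test, TMPO had the largest log2 changes of the 9 genes in 4 of the 5 comparisons. That order depends on the added 0.5 RPKM. On recovered reads LMNB1 changed more than TMPO in control 4N against control 2N (1.92 against 1.69). The same held in Anillin 4N against control 4N (-2.38 against -2.34) and in Anillin 2N against control 2N (-1.45 against -1.04). In Anillin 4N against control 2N TMPO changed more (-0.64 against -0.46). TMPO rose 3.24-fold from control 2N to control 4N (1.54 ± 0.08, adjusted p = 7.17e-07) and Anillin 4N was 5.07-fold below control 4N (-2.06 ± 0.08, adjusted p = 7.76e-08). Both Anillin groups were below control 2N, Anillin 2N by 2.06-fold (-0.82 ± 0.08, adjusted p = 0.000154) and Anillin 4N by 1.56-fold (-0.52 ± 0.08, adjusted p = 0.0014). From Anillin 2N to Anillin 4N the change of 0.30 ± 0.08 did not pass on RPKM (adjusted p = 0.0925) and passed on recovered reads (0.40 ± 0.09, adjusted p = 0.0109).

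LBR (ENSG00000143815, minus strand of chromosome 1 from 225401502 to 225428925) encodes the lamin B receptor, a membrane protein that also has sterol reductase activity. Its level was 2.87, 2.77 and 2.85 RPKM in control 2N and 5.34, 4.91 and 5.04 in control 4N. The Anillin groups had 2.33, 2.56 and 2.68 at 2N and 3.04, 3.07 and 3.01 at 4N. The order by mean was control 4N, Anillin 4N, control 2N and Anillin 2N, without overlap between groups. LBR rose 1.8-fold from control 2N to control 4N (0.75 ± 0.04, adjusted p = 1.5e-06) and Anillin 4N was 1.68-fold below control 4N (-0.66 ± 0.04, adjusted p = 1.9e-06).

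The lower steps of LBR were small. Anillin 4N exceeded Anillin 2N by 0.23 ± 0.04 (adjusted p = 0.0213). That call was lost without the first (0.0505) or the second (0.0658) library of Anillin 2N and without any of the 3 of Anillin 4N (0.0667, 0.0857 and 0.064). It was also lost with the compared groups fitted alone (0.0853). The change of Anillin 2N against control 2N was -0.14 ± 0.04 (adjusted p = 0.038), and 11 of the alternatives removed the call. Among them, leaving out 1 of 8 libraries from all 4 groups gave an adjusted p of 0.0533 to 0.112, and quantile scaling 0.102. Anillin 4N and control 2N gave 0.09 ± 0.04 (adjusted p = 0.174).

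EMD (ENSG00000102119, plus strand of chromosome X from 154379197 to 154381523) encodes emerin. Its level was 23.7, 19.8 and 22.4 RPKM in control 2N and 28.3, 25.5 and 26.7 in control 4N. After Anillin siRNA the values were 21.7, 19.4 and 19.1 at 2N and 21.3, 21.3 and 19.8 at 4N. Control 4N stood above the other groups, which overlapped one another. EMD was 1.22-fold higher in control 4N than in control 2N (0.28 ± 0.07, adjusted p = 0.0143) while Anillin 4N was 1.29-fold below control 4N (-0.36 ± 0.07, adjusted p = 0.00256). The first call was lost when libraries were quantile scaled (0.14, adjusted p = 0.0843) or the first library of control 4N was left out (0.24, adjusted p = 0.0619).

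LEMD3 (ENSG00000174106, plus strand of chromosome 12 from 65169571 to 65248327) encodes MAN1, which also binds SMAD proteins. Its 12 values lay between 0.319 and 0.387 RPKM, below the filter, from 463 to 1641 reads per library, and all groups overlapped. On recovered reads its log2 change was -0.002 ± 0.07 in control 4N against control 2N (adjusted p = 0.986) and 0.07 ± 0.07 in Anillin 4N against control 4N (adjusted p = 0.496). In the other 3 comparisons it lay between 0.01 and 0.07 with adjusted p from 0.556 to 0.948.

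BANF1 (ENSG00000175334, plus strand of chromosome 11 from 66002079 to 66004149) encodes BAF, which bridges DNA and the LEM-domain proteins. Its level was 63.0, 52.8 and 62.5 RPKM in control 2N and 84.2, 71.3 and 78.4 in control 4N. After Anillin siRNA it was 47.3, 43.6 and 41.4 at 2N and 49.7, 51.2 and 55.8 at 4N. Control 4N was the highest group and Anillin 2N the lowest, and Anillin 4N overlapped control 2N alone. The value is uncertain where reads could be split with copies of the gene: the pseudogene BANF1P3 was at a mean of 29.7 RPKM, and EIF1AD overlaps BANF1 on the opposite strand.

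BANF1 was 1.31-fold higher in control 4N than in control 2N (0.39 ± 0.09, adjusted p = 0.00677), at 4N 1.49-fold lower after Anillin siRNA (-0.57 ± 0.09, adjusted p = 0.000382) and at 2N 1.35-fold lower (-0.42 ± 0.09, adjusted p = 0.00582). Anillin 4N did not pass the test against Anillin 2N (0.24 ± 0.09, adjusted p = 0.195) or against control 2N (-0.18 ± 0.09, adjusted p = 0.147).

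The SUN-domain genes, whose products span the inner membrane, are described together. SUN1 (ENSG00000164828, plus strand of chromosome 7 from 816615 to 896435) was at 1.73, 1.85 and 1.8 RPKM in control 2N and 1.76, 1.84 and 1.8 in control 4N. The values in the Anillin groups were 2.11, 2.11 and 2.08 at 2N and 2.15, 2.08 and 2.09 at 4N. Every library of the Anillin siRNA was above every control library, and DNA content made no separation. GET4 overlaps SUN1 on the same strand.

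SUN1 was 1.17-fold higher after Anillin siRNA both at 4N (0.18 ± 0.03, adjusted p = 0.000351) and at 2N (0.18 ± 0.03, adjusted p = 0.00122). Between 4N and 2N the log2 change was 0.0006 ± 0.03 in control cells (adjusted p = 0.99) and 0.003 ± 0.03 after Anillin siRNA (adjusted p = 0.964), and the sign of both turned with quantile scaling, to -0.07 and -0.03. Both calls on the siRNA held in each alternative that was run.

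SUN2 (ENSG00000100242, minus strand of chromosome 22 from 38734725 to 38794143) was at 1.85, 1.78 and 1.95 RPKM in control 2N and 3.28, 3.01 and 3.39 in control 4N. The Anillin groups had 1.64, 1.53 and 1.77 at 2N and 2.07, 2.04 and 2.23 at 4N. The groups did not overlap, in the order control 4N, Anillin 4N, control 2N and Anillin 2N that LBR also had. GTPBP1 on the opposite strand and DNAL4 on the same strand overlap its span. It rose 1.74-fold from control 2N to control 4N (0.66 ± 0.05, adjusted p = 1.47e-05) and Anillin 4N was 1.53-fold below control 4N (-0.51 ± 0.05, adjusted p = 3.41e-05).

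Within the Anillin siRNA, SUN2 rose 1.29-fold from 2N to 4N (0.29 ± 0.05, adjusted p = 0.0184), a call lost without the first (0.0587) or the second (0.075) library of Anillin 2N or the third of Anillin 4N (0.0722). Fitting the compared groups alone also lost that call (0.0657). Against control 2N, neither step passed the main test and both passed on recovered reads. The log2 change of Anillin 2N was -0.14 ± 0.05 (adjusted p = 0.0857, and -0.18 ± 0.06 on reads, adjusted p = 0.029), and it also passed on log2 RPM (0.0487) and without the third library of Anillin 2N (0.0451). That of Anillin 4N was 0.15 ± 0.05 (adjusted p = 0.0653, and 0.19 ± 0.06 on reads, adjusted p = 0.029), and it also passed with quantile scaling (0.0266) and on log2 RPM (0.00489). Per exonic kilobase, SUN2 had 139% ± 9 (SD, n = 3) of the reads of SUN1 in control 2N, 242% ± 18.4 in control 4N, 105% ± 8.46 in Anillin 2N and 135% ± 7.63 in Anillin 4N.

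**Figure D3:**
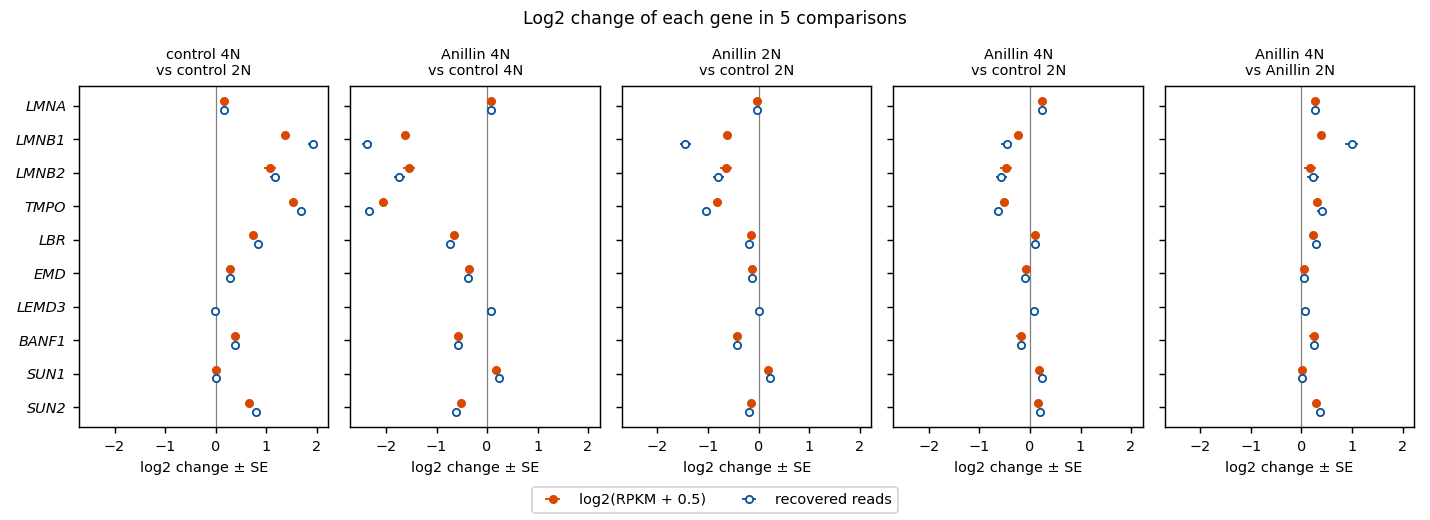
Log2 change ± SE of each of the 10 genes in 5 comparisons of groups (horizontal axis, the same in all panels), from limma-trend on log2(RPKM + 0.5) (filled) and from limma-voom on recovered reads (open, the only test of LEMD3). LMNB1, LMNB2 and TMPO lie farthest from 0 in the first 3 panels, and LMNB1 differs most between the scales (-1.62 against -2.38 in Anillin 4N against control 4N).

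The difference between 4N and 2N cells was smaller after Anillin siRNA than in control cells for 5 of the 9 genes tested, and larger for 0, where 10.7% of all genes had a lower and 4.93% a higher difference. The test of the difference itself (the interaction of siRNA and DNA content) gave -1.24 ± 0.12 for TMPO (adjusted p = 0.000146), -0.99 ± 0.10 for LMNB1 (adjusted p = 0.000241), -0.90 ± 0.17 for LMNB2 (adjusted p = 0.00669), -0.52 ± 0.06 for LBR (adjusted p = 0.000688) and -0.37 ± 0.08 for SUN2 (adjusted p = 0.0102). EMD (-0.23 ± 0.11, adjusted p = 0.173), BANF1 (-0.15 ± 0.12, adjusted p = 0.466), LMNA (0.11 ± 0.10, adjusted p = 0.516) and SUN1 (0.003 ± 0.04, adjusted p = 0.97) did not pass. At an unadjusted p under 0.05 the counts were also 5 and 0, and the share of all genes at that threshold was not counted. The same 5 genes and no others among the 10 passed on recovered reads, where 8.19% of all genes were lower and 6.36% higher.

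Set against the mean of control 2N, the genes spread from high to low. Control 4N stood at 380% for LMNB1, 324% for TMPO, 226% for LMNB2, 180% for LBR, 174% for SUN2, 131% for BANF1, 122% for EMD, 112% for LMNA, 101% for LEMD3 and 100% for SUN1. Anillin 4N stood at 118% for LMNA, 117% for SUN1, 114% for SUN2, 107% for LBR, 104% for LEMD3, 94.6% for EMD, 87.9% for BANF1, 72.4% for LMNB1, 66.6% for LMNB2 and 63.9% for TMPO. Anillin 2N ranged from 37.3% (LMNB1) to 117% (SUN1).

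Of 8 other genes listed for the inner nuclear membrane or as relatives of such genes (TOR1AIP2 beside TOR1AIP1), 7 were tested. NEMP1, a membrane protein that supports nuclear stiffness, and NRM, which encodes nurim, rose in control 4N over control 2N, where 23.9% of all genes tested rose. Of the 7, 4 fell in Anillin 4N against control 4N, where 31.5% of all genes did. NEMP1 was at 2.56 ± 0.0626 RPKM in control 4N (SD, n = 3), 1.1 ± 0.0689 in control 2N, 0.575 ± 0.0139 in Anillin 2N and 0.624 ± 0.0102 in Anillin 4N, a log2 change of -1.44 ± 0.03 between the 4N groups (adjusted p = 1.46e-08). NRM fell from 10.8 ± 0.589 to 6.63 ± 0.495 RPKM in the same comparison (-0.66 ± 0.10, adjusted p = 0.000268), and TOR1AIP2, a torsin cofactor, by 0.20 in log2 (log2 change -0.2, adjusted p = 0.00172). Against control 2N, 5 of the 7 were lower in Anillin 4N (15.8% of all genes), led by NEMP1 (-0.51), TOR1AIP2 (-0.21) and ANKLE2 (-0.16). That count was 3 without the second library of control 2N or the first of Anillin 4N, with the compared groups alone and on log2 RPM.

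The nesprins SYNE1, SYNE2, SYNE3 and SYNE4, partners of the SUN proteins, are very long genes or low ones and none of the 4 passed the RPKM filter. On recovered reads SYNE1 fell from control 2N to control 4N (-0.55 ± 0.08, adjusted p = 1.2e-05) while SYNE2 (0.59 ± 0.06, adjusted p = 9.88e-08) and SYNE3 (0.52 ± 0.15, adjusted p = 0.00952) rose. Between the 4N groups, SYNE1 (0.63 ± 0.08, adjusted p = 1.39e-06) and SYNE3 (0.44 ± 0.15, adjusted p = 0.0183) were higher and SYNE2 lower (-0.63 ± 0.06, adjusted p = 5.59e-08). SYNE2 had the direction of SUN2 in both comparisons and SYNE1 the opposite.

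Of 5 genes that process farnesylated lamins, 4 were tested. ICMT, the methyltransferase of their last step, rose from 6.18 ± 0.669 RPKM in control 2N to 9.38 ± 0.733 in control 4N (0.57 ± 0.07, adjusted p = 0.000319) and was at 5.08 ± 0.111 in Anillin 4N (-0.82 ± 0.07 against control 4N, adjusted p = 1.25e-05). ZMPSTE24, the protease that matures prelamin A, passed in no comparison, with 1.98 RPKM in both control groups, 1.93 in Anillin 2N and 1.83 in Anillin 4N. RCE1, another protease of the pathway, was higher than in control 2N both in control 4N (0.27 ± 0.08, adjusted p = 0.0218) and in Anillin 4N (0.39 ± 0.08, adjusted p = 0.00433), and did not pass the test between the 4N groups (0.12 ± 0.08, adjusted p = 0.215).

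Of 14 genes that take the envelope apart or reseal it, 11 were tested. In control 4N against control 2N, 6 rose and 1 fell (23.9% and 13.2% of all genes), with CNEP1R1 (0.34), VPS4A (0.30) and CTDNEP1 (0.29) the largest, and the 7 called became 3 with the compared groups alone. Between the 4N groups, 2 rose and 5 fell after Anillin siRNA (20.0% and 31.5% of all genes), led by VPS4A (-0.34), VPS4B (-0.25) and CHMP7 (-0.24). VPS4A and VPS4B are the ATPases of the ESCRT machinery and CHMP7 is its adaptor at the nuclear membrane. The median log2 change of the list was 0.10 and -0.15 in these comparisons.

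Of 30 nuclear pore genes, 27 were tested. NUP93, NDC1 and AHCTF1 reached 0.5 RPKM in enough libraries only through control 4N, so that a difference from that group was part of how they entered, and they are left out of the next counts. Of the other 24, 19 rose and 0 fell in control 4N against control 2N (23.9% and 13.2% of all genes, median log2 change 0.34), and 21 fell and 0 rose in Anillin 4N against control 4N (31.5% and 20.0%, median -0.42). In Anillin 2N against control 2N, 12 fell and 0 rose (17.1% and 11.4%). Anillin 4N against control 2N had 6 falls and 0 rises (15.8% and 14.1%). With the 3 genes included that last count was 8, and it became 5 without the second library of Anillin 4N or with the compared groups alone. The count in Anillin 2N against control 2N was then 14, and 7 with the compared groups alone. For the counts of 0 over all 27, in the order given, an unadjusted p under 0.05 in limma-trend gave 1, 0, 0 and 2 genes. The share of all genes at that unadjusted threshold was not counted. Limma-voom with adjustment gave 0, 0, 0 and 1 of 30.

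On recovered reads, where all 30 pore genes were tested, 26 rose in control 4N against control 2N (19.0% of all genes by limma-voom). In Anillin 4N against control 4N, 28 fell (23.6% of all genes). NUP58 (-0.96) and NUP62 (-0.91), both of the central channel, fell between the 4N groups by the RPKM test. NDC1, which anchors the pore in the membrane, was at 0.544 ± 0.0917 RPKM in control 2N (SD, n = 3), 1.51 ± 0.133 in control 4N, 0.225 ± 0.00438 in Anillin 2N and 0.346 ± 0.0124 in Anillin 4N. On recovered reads its log2 change was 1.46 ± 0.08 from control 2N to control 4N (adjusted p = 6.48e-11) and -2.11 ± 0.10 in Anillin 4N against control 4N (adjusted p = 1.79e-12).

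Of 10 genes of peripheral heterochromatin, 9 were tested, and SUV39H2 among them passed the filter only through control 4N. Of the other 8, 6 rose in control 4N against control 2N (23.9% of all genes, median log2 change 0.45). Between the 4N groups, 5 fell and 1 rose after Anillin siRNA (31.5% and 20.0%, median -0.43). SUV39H1, a histone H3 methyltransferase, fell by 1.14 ± 0.10 in log2 (log2 change -1.14, adjusted p = 1.17e-05), CBX5, which encodes the LBR partner HP1 alpha, from 8.61 ± 0.44 RPKM by 2.02-fold (-0.94 ± 0.05, adjusted p = 5.24e-07), and CBX1 by 2.01-fold (-0.91 ± 0.07, adjusted p = 2.71e-06). From Anillin 2N to Anillin 4N, limma-trend called 0 of the 58 genes tested in these other lists of envelope and heterochromatin genes. Over all genes tested, 2.61% were higher and 0.97% lower, so few calls in 58 genes would stand near that share. At an unadjusted p under 0.05, 12 of the 58 were higher and 2 lower, and the share of all genes at that threshold was not counted. Limma-voom on recovered reads called 3 of 30 pore genes and 1 of 10 heterochromatin genes, all higher (2.57% of all genes were higher and 1.47% lower).

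**Figure D4:**
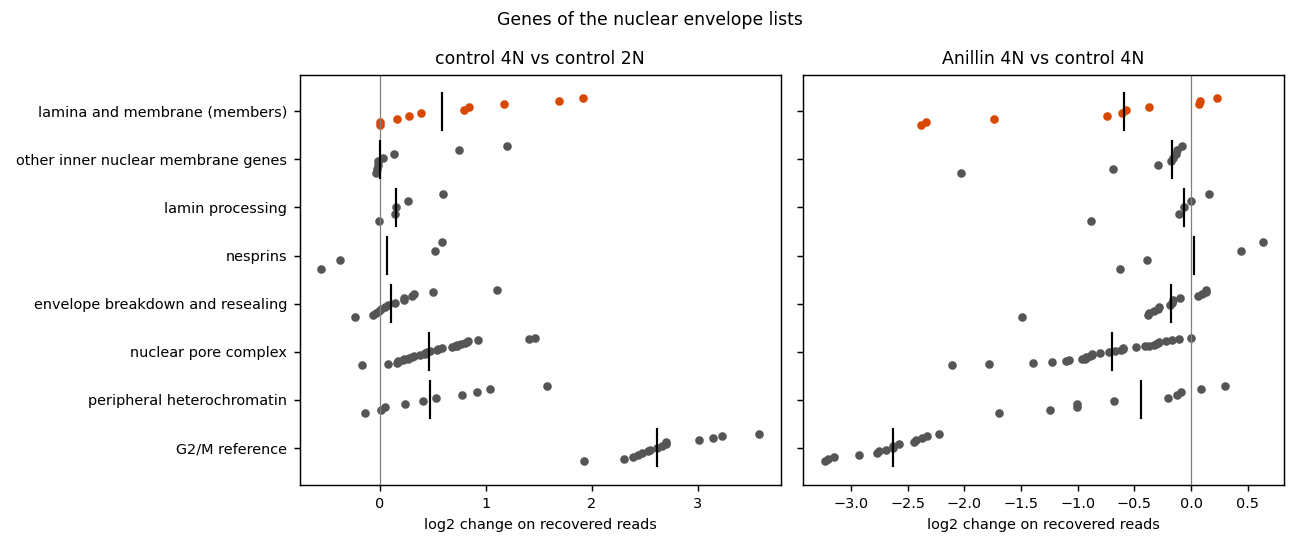
Log2 change on recovered reads of each gene of the lists (points; the 10 lamina and membrane genes in orange) in control 4N against control 2N and in Anillin 4N against control 4N, with the median of each list as a black line. The medians of the 10 genes are 0.59 and -0.59, those of the pore genes 0.46 and -0.7, and those of the 15 G2/M genes 2.62 and -2.63.

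The genes closest to LMNB1 over the 12 libraries depended on the scale. On log2(RPKM + 0.5), which compresses the low values of LMNB1, they were TUBA1C, BUB3, H2AZ1, TUBB and TUBBP1, with a root mean square difference of centred values of 0.079, 0.095, 0.101, 0.104 and 0.111, where the median over 5662 genes compared was 0.736. In RPKM, TUBA1C went from 6.27 in control 2N to 17.4 in control 4N and was at 3.57 and 4.82 in the Anillin groups, a smaller range than that of LMNB1 (0.662, 2.52, 0.247 and 0.479).

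On log2 RPM of recovered reads (reads scaled to library size, with 0.5 read added), a scale chosen after the first result was seen, the closest to LMNB1 were MAD2L1 (0.114), ZWINT (0.151), CKS1B (0.163), ARHGAP11A (0.191) and ENSG00000261061 (0.193), with a median of 1.195. MAD2L1, a protein of the spindle checkpoint, was at 2.22, 8.48, 0.813 and 1.72 RPKM in the order above. For LMNA on log2(RPKM + 0.5) they were VPS37B (0.063), TMEM208 (0.064), ENKD1 (0.065), ATP6V0B (0.068) and NDUFS7 (0.069), with a median of 0.189, and on recovered reads ID1 (0.071) took the place of ENKD1. ATP6V0B, a proton pump subunit, was at 13.9, 15.8, 14.1 and 16.5 RPKM in the same order.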

How the data were processed

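RNA-seq was measured in 12 libraries of sorted RPE1 cells, 3 for each of 4 groups taken from the labels. The authors deposited RPKM values, and the submitters' processing notes list CASAVA 1.8.2, TopHat2, edgeR and hg19 with no role. The sources used here do not give annotation, counting tool or strand use, and the labels name both a stranded mRNA kit and ribo-depleted total RNA. With GENCODE 29 spans or a common divisor, the values of all 38571 genes above 0 were whole reads within 0.01 read (for SUN1 the divisor gave a length of 80545 bases in place of 79821). Span normalization places long genes low.

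Genes with RPKM of at least 0.5 in at least 3 libraries were tested on log2(RPKM + 0.5) with limma-trend (limma 3.58.1, R 4.3.3), 1 mean per group, two-sided, Benjamini-Hochberg over 12892 genes, threshold 0.05. The test was checked on simulated data in which few genes changed and all genes had the same spread setting. That check gives no error rate for these data. Limma-voom used recovered reads (at least 10 in at least 3 libraries, 22404 genes). At most 3 called genes per other list and comparison, with the largest log2 changes, and the 5 genes most like LMNB1 and LMNA (mean RPKM of at least 2) are named; nesprins and ZMPSTE24 were added after their values were seen. Alternatives were other pseudocounts, no filter, quantile scaling, log2 RPM, fits of the compared groups alone and leaving out each library. After the data were seen, likeness on recovered reads and list counts without genes that passed the filter through 1 group were added. The genes and lists were chosen with earlier results of these data known.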

Additional observations from a re-analysis of the deposited data

Results flagged for a closer look

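The 4N against 2N difference differed between the siRNAs for 5 genes, by the test of the interaction itself in limma-trend: the change after Anillin siRNA minus that in control cells was -0.99 for LMNB1, -0.9 for LMNB2, -0.52 for LBR, -1.24 for TMPO and -0.37 for SUN2 on the log2 scale. Each of them rose from 2N to 4N in control cells. After Anillin siRNA, LMNB1, LBR and SUN2 rose from 2N to 4N by less, while LMNB2 (0.17, adjusted p = 0.527) and TMPO (0.30, adjusted p = 0.0925) did not pass the limma-trend test of that rise. By limma-voom on recovered reads TMPO passed it (0.40, adjusted p = 0.0109). The calls of LMNB1, LBR and SUN2 were lost in 4, 6 and 4 of 19 alternatives. The summed level of the 15 G2/M genes differed in the same way, 39.6 to 59.9 against 313 to 360 RPKM in control cells and 15.3 to 16.7 against 48.0 to 52.2 RPKM after Anillin siRNA, and its part in these differences was not tested. Groups of 3 libraries were too small for a search for single outlying libraries. The second library of control 2N was the lowest of its group for LMNB1 (0.514 RPKM), LMNB2 (2.38) and TMPO (2.4) and the highest for SUN1 (1.85).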

How the results depend on the processing

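No paired analysis was run because the sample numbers in the labels run on through the 12 libraries and no number is shared between groups. Whether the 2N and 4N libraries of an siRNA came from the same cultures is not stated, and any such pairing was ignored. Of the 10 genes' log2 changes under the alternatives, 955 kept direction and call, 43 lost the call, 16 gained it and 15 turned sign. The cause of these moves was not tested. The number of lamina genes called in Anillin 4N against Anillin 2N, 3, became 5 by limma-voom and 6 on log2 RPM, and ranged from 0 to 4 when single libraries were left out. It was 0 without the first or the second library of Anillin 2N or the third of Anillin 4N, and 1 without the second of Anillin 4N. In Anillin 4N against control 2N, 5 became 3 without a filter (more genes tested) and 2 with the compared groups alone (fewer libraries), and ranged from 2 to 5 with single libraries left out. It was 2 without the first library of control 2N and 3 without the first or the second of Anillin 4N. The signs that turned belong to values near 0 that passed no test: LMNA in control 4N against control 2N was -0.01 with quantile scaling, and in Anillin 2N against control 2N ranged from -0.09 to 0.03 over left-out libraries. SUN1 was -0.03 in Anillin 4N against Anillin 2N with quantile scaling, and -0.07 and -0.06 in control 4N against control 2N with quantile scaling and log2 RPM. Over left-out libraries, SUN1 ranged from -0.01 to 0.01 in Anillin 4N against Anillin 2N, from -0.02 to 0.02 in control 4N against control 2N, and from -0.02 to 0.02 for the interaction. LEMD3 in control 4N against control 2N was 0.004 on reads without a filter.

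Over all genes, the count called was 6638 in Anillin 4N against control 4N and 10909 on log2 RPM (6766 higher and 4143 lower). In control 4N against control 2N it was 4782, with 8135 by limma-voom (4248 higher and 3887 lower), 8068 on log2 RPM (3118 higher and 4950 lower) and 3153 without control 4N replicate 1. In Anillin 2N against control 2N it was 3682 (1473 higher and 2209 lower), with 6399 by limma-voom, 5792 on log2 RPM, 2347 with the compared groups alone, and 1951 higher and 1900 lower with quantile scaling. In Anillin 4N against control 2N it was 3854, with 6147 by limma-voom and 6519 on log2 RPM. In Anillin 4N against Anillin 2N it was 461 (336 higher and 125 lower), with 905 by limma-voom, 1127 on log2 RPM, 309 higher and 194 lower with quantile scaling, and 241, 307, 249 and 307 without the second or the third library of Anillin 2N or of Anillin 4N. Without control 2N replicate 2 that count was 616 (453 higher and 163 lower). For the interaction it was 2019 (636 higher and 1383 lower), with 3258 by limma-voom (1424 higher and 1834 lower), 3817 on log2 RPM (2440 higher and 1377 lower), 781 higher and 1099 lower with quantile scaling, and 1093 and 1251 without control 4N replicate 1 or 3.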
